A study of Rattus norvegicus with 9 samples.

Results

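The 9 genes followed here mark the response to interferon gamma: the ligand Ifng, the receptor chain Ifngr1, the transcription factor Irf1, the feedback inhibitor Socs1, the chemokines Cxcl9, Cxcl10 and Cxcl11, the guanylate-binding protein Gbp2 and the immunoproteasome subunit Psmb9. They were found by symbol in the deposited tables, and all 9 of 9 were listed among 32883 genes. Bulk RNA-seq covered 9 livers of male Sprague-Dawley rats of 8 to 11 weeks, with 3 normal livers, 3 livers of the empty group and 3 livers of the UTOpiA group. Both ACLF (acute-on-chronic liver failure) groups had their bile duct ligated (BDL) for 21 days, received lipopolysaccharide (LPS, a bacterial endotoxin) at 0.25 mg/kg, and were connected 1 h later, under isoflurane and heparin, to an extracorporeal whole blood circuit for 2 h. The circuit of the empty group held neither treatment column. That of the UTOpiA group held a granulocyte and monocyte apheresis (GMA) column followed by alginate-encapsulated human hepatocyte-like organoids, made from gene-edited iPSC lines. The normal rats are labelled only as normal. ACLF livers were taken from survivors 24 h after LPS, so rats that died earlier are not represented, and the UTOpiA group does not separate its GMA column from its organoids.

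Interferon gamma is made mainly by activated T cells and natural killer (NK) cells. It binds the receptor formed by IFNGR1 and IFNGR2, whose kinases JAK1 and JAK2 pass the signal to transcription factors that bind gamma-activated sites in the promoters of early targets such as Irf1. IRF1 in turn acts on later targets through interferon-stimulated response elements, and SOCS1 shuts the kinases down again. In liver the response is known for chemokines that call in lymphocytes through the receptor CXCR3, and for antigen presentation by hepatocytes and macrophages.

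The promoter sequences of 6 of the genes are shown because the transcripts below moved apart although the genes are targets of one cytokine and Cxcl9, Cxcl10 and Cxcl11 lie next to each other on chromosome 14. Each is the 250 bases before the annotated start, 5′ to 3′, from RefSeq on GRCr8, with gamma-activated sites (TTCNNNGAA) and response element cores (GAAANNGAAA), searched on both strands, in capitals:
Irf1 (chr10:38417685-38417934, plus strand): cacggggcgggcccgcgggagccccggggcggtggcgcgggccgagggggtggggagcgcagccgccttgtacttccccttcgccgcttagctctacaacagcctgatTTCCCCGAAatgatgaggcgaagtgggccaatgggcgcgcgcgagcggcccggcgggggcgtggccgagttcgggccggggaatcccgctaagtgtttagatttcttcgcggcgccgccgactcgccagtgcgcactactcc
Socs1 (chr10:5389324-5389573, plus strand): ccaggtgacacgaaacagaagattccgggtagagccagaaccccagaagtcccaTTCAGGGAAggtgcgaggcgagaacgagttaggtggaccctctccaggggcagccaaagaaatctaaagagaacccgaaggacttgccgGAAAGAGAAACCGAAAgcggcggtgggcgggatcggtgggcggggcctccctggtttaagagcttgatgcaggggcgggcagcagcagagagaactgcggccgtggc
Gbp2 (chr2:234005477-234005726, plus strand): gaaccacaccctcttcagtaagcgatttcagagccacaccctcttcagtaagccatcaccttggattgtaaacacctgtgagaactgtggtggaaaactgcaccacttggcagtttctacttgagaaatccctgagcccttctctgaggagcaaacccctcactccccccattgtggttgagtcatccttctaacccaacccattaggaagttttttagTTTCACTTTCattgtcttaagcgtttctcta
Cxcl9 (chr14:16006916-16007165, plus strand): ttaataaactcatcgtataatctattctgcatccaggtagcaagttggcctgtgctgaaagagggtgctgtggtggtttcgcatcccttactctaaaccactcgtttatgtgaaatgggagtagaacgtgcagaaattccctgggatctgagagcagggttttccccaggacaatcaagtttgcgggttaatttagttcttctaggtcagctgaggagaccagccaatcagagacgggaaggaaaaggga
Cxcl10 (chr14:15988816-15989065, plus strand): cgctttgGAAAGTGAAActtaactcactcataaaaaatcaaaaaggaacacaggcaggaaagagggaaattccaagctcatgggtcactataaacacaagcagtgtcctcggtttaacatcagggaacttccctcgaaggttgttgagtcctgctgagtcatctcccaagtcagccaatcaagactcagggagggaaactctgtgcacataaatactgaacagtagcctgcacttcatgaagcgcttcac
Cxcl11 (chr14:15973478-15973727, plus strand): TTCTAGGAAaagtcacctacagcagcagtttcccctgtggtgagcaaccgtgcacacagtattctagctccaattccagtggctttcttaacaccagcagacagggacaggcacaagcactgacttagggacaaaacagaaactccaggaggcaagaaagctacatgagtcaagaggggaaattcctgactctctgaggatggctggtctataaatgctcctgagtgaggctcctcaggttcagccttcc

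Irf1 held 1 gamma-activated site at -142 to -134 from its start, Socs1 held 1 at -196 to -188, and Cxcl11 held 1 at -250 to -242. Socs1 also held 2 response element cores, which overlap, at -107 to -98 and -101 to -92, Cxcl10 held 1 at -243 to -234, and Gbp2 held 1 on the minus strand at -31 to -22. The windows of Cxcl9, Ifng, Ifngr1 and Psmb9 held neither motif, which says only that these letters were not in these 250 bases. Of 33469 promoters of this length, 7.67% held a gamma-activated site and 3.41% a response element core. The deposited tables carry coordinates of another build (rn6 in the submitters' processing notes), where Cxcl11 lies at chr14:17195014-17198291, Cxcl10 at chr14:17210733-17212930 and Cxcl9 at chr14:17228856-17234712.

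Between 14241172 and 17321677 reads were counted per library. Albumin took 13.3% to 14.9% of the reads in normal and 1.54% to 3.91% in ACLF livers, and the 7 hepatocyte markers summed to 42211 TPM or more in every liver. Levels below are TPM (transcript share of a library after scaling by gene length), and log2 fold changes come from the counts after TMM scaling, fitted over all 14089 genes that passed the filter on low counts. The 2 scales differ. On log2(TPM + 1) the median gene lay 0.47 higher in the empty group against normal, 0.28 higher in the UTOpiA group against normal and 0.19 lower in the UTOpiA group against the empty group than on the TMM scale, so differences are read from the fit. A gene was called higher or lower when edgeR's quasi-likelihood test gave a Benjamini-Hochberg adjusted p under 0.05 and the change was more than 2-fold. Exact permutation tests of the members' TPM were also run, 27 in all, and with 3 livers against 3 they cannot give a p below 0.1.

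The transcript of the ligand was barely present. Ifng had 1, 0 and 0 reads in normal, 0, 1 and 1 in empty and 0, 0 and 0 in UTOpiA livers. It did not pass the filter and has no fold change, and a count of 0 allows up to 3 reads, so a difference in Ifng was not detectable at this depth. The paper reports a significant reduction of liver Ifng with UTOpiA from its RNA-seq data, which these few reads cannot decide. The other 8 genes passed the filter and were tested.

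**Figure D1:**
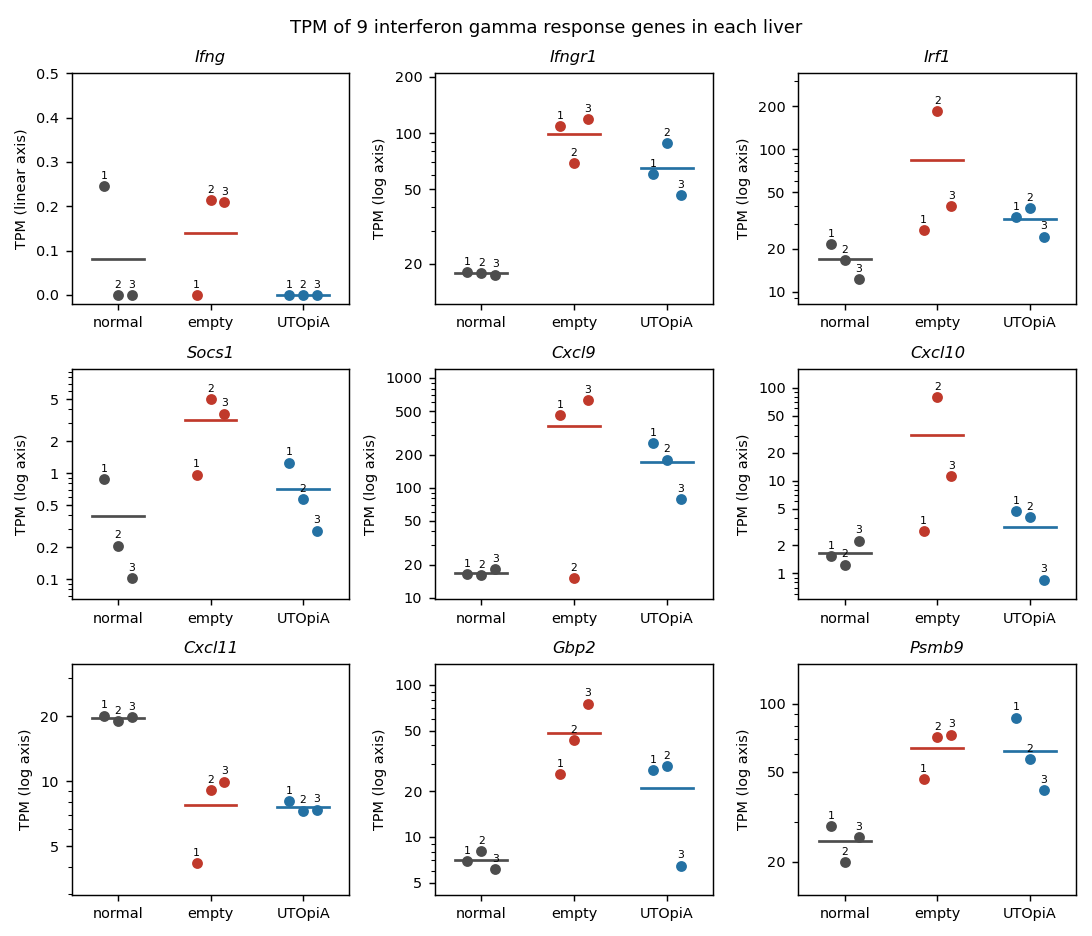
TPM of the 9 genes in each liver, on a log axis except for Ifng (linear axis, 0 to 0.5). Points are livers numbered by replicate and lines are group means, with normal in grey, empty in red and UTOpiA in blue. In TPM, Ifngr1, Irf1, Psmb9 and Cxcl11 separated both ACLF groups from normal livers, with only Cxcl11 lower in the ACLF livers. After TMM scaling, the Irf1 values of the empty and normal livers overlapped. For Irf1, Cxcl9 and Cxcl10, 1 empty liver, replicate 2, lay far from the other empty livers.

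For empty against normal, 6 members rose, 1 fell and 1 changed by less than 2-fold. The receptor chain Ifngr1 gave the steadiest rise, with 17.9, 17.8 and 17.5 TPM in normal, 109, 69.4 and 119 in empty and 60.6, 88.1 and 46.8 in UTOpiA livers. The normal and ACLF livers were far apart, and the ACLF groups overlapped. The fitted change was 1.96 ± 0.20 (SE, n = 3 per group, adjusted p = 0.00013) for empty against normal on the log2 scale, 3.88-fold. For UTOpiA against normal it was 1.52 ± 0.20 (adjusted p = 0.00057), 2.87-fold.

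Irf1, a transcription factor and early target of the signal, measured 21.7, 16.7 and 12.3 TPM in normal, 27.1, 186 and 40.1 in empty and 33.4, 38.8 and 24.4 in UTOpiA livers. Empty replicate 2 stood 5.54-fold above the mean of the other empty livers, which lay close to the UTOpiA livers. Irf1 was called higher in the empty group, by 1.81 ± 0.65 (adjusted p = 0.0456). Without empty replicate 2 the change was 0.44 (adjusted p = 0.124). The UTOpiA group did not pass the test against normal livers, at 0.59 ± 0.63 (adjusted p = 0.487).

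Socs1, whose product inhibits the JAK kinases, was low throughout, with 8, 2 and 1 reads in normal, 11, 52 and 39 in empty and 12, 6 and 3 in UTOpiA livers. These correspond to 0.880, 0.207 and 0.102 TPM, to 0.971, 4.97 and 3.65 TPM, and to 1.26, 0.573 and 0.287 TPM. Empty replicates 2 and 3 carried the difference, and empty replicate 1 lay within the range of the UTOpiA livers. The empty group was called higher than normal by 2.46 ± 0.85 on the log2 scale (adjusted p = 0.0376), or 3.75 without normal replicate 1, and the UTOpiA group was not, at 0.48 ± 0.92 (adjusted p = 0.705).

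The 3 ligands of CXCR3, the chemokine receptor of activated T cells and NK cells, each had a pattern of its own. Cxcl9 measured 16.4, 16.01 and 18.0 TPM in normal, 460, 15.1 and 629 in empty and 256, 181 and 78.2 in UTOpiA livers. Of the 6 ACLF livers 5 were above every normal liver, and empty replicate 2 was below all of them, 35.97-fold under the mean of the other empty livers. The fitted change was 3.91 ± 1.04 for empty against normal (adjusted p = 0.0138), 15.01-fold, and 2.98 ± 1.00 for UTOpiA against normal (adjusted p = 0.0425), 7.90-fold.

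Cxcl10 was highest in the empty liver in which Cxcl9 was lowest. It measured 1.54, 1.24 and 2.25 TPM in normal, 2.83, 79.5 and 11.1 in empty and 4.72, 4.01 and 0.861 in UTOpiA livers. Empty replicate 2, the lowest ACLF liver for Cxcl9, was the highest for Cxcl10, 11.4-fold above the mean of the other empty livers. The rise in the empty group was 3.69 ± 1.14 on the log2 scale (adjusted p = 0.0266), and without empty replicate 2 it was 1.45 (adjusted p = 0.0977). The UTOpiA group overlapped the normal livers, with a fitted change of 0.53 ± 1.16 (adjusted p = 0.743).

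Cxcl11 moved against its neighbours. It measured 20.2, 19.0 and 19.9 TPM in normal, 4.19, 9.07 and 9.98 in empty and 8.11, 7.31 and 7.39 in UTOpiA livers. All 6 ACLF livers were below all normal livers, and the UTOpiA livers lay within the range of the empty group. Of all genes, 12.8% had every empty liver below every normal liver in TPM, and 13.4% had every UTOpiA liver below. It fell by 1.89 ± 0.28 on the log2 scale in the empty group (adjusted p = 0.00067) and by 1.67 ± 0.28 in the UTOpiA group (adjusted p = 0.0017), to a level 3.70-fold and 3.19-fold below normal.

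Because ratios within a liver do not depend on the scaling, the 3 chemokines were also compared with each other. Cxcl9 was 43.1% to 44.9% of their summed TPM in normal livers and Cxcl11 was 49.5% to 52.9%. In 5 ACLF livers Cxcl9 was 90.5% to 98.5% of the sum. In empty replicate 2, Cxcl9 was 14.6%, Cxcl10 was 76.6% and Cxcl11 was 8.75%. The Cxcl9 to Cxcl10 ratio was 10.6, 12.9 and 8.01 in normal, 163, 0.190 and 56.8 in empty and 54.3, 45.0 and 90.9 in UTOpiA livers. The ratio of the UTOpiA livers was above that of every normal liver (exact permutation p = 0.1, two-sided), while the empty livers lay on both sides of the normal livers.

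**Figure D2:**
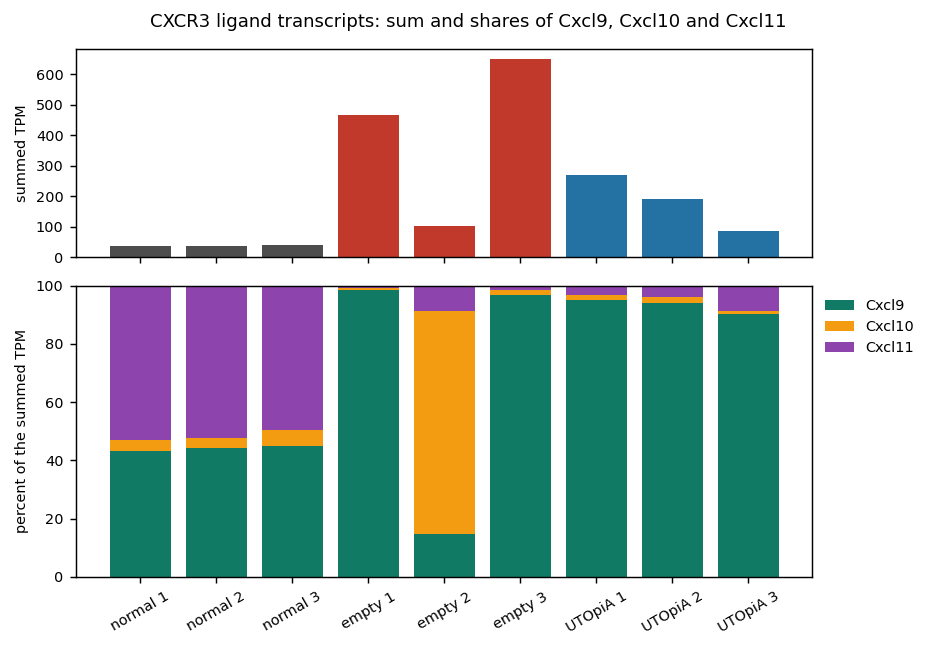
Summed TPM of Cxcl9, Cxcl10 and Cxcl11 in each liver (top) and the percent of that sum from each gene (bottom). The normal livers summed to 36.3 to 40.2 TPM and the ACLF livers to 86.5 to 650, and empty replicate 2 was the one liver in which Cxcl10 took most of it.

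Gbp2, a GTPase that acts against intracellular microbes, measured 6.95, 8.06 and 6.13 TPM in normal, 26.0, 43.3 and 75.2 in empty and 27.6, 29.1 and 6.47 in UTOpiA livers. UTOpiA replicate 3 was within the normal range, and the other UTOpiA livers were just above the lowest empty liver. The empty group was called higher by 2.22 ± 0.47 (adjusted p = 0.0047), 4.67-fold. The UTOpiA group missed the threshold against normal livers, at 1.17 ± 0.46 (adjusted p = 0.0722), and passed it without UTOpiA replicate 3, at 1.54 (adjusted p = 0.0089). DESeq2 called it with all livers, at 1.17 (adjusted p = 0.0332). Gbp2 has close paralogs, and how reads shared among them were counted could change its level.

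Psmb9, a catalytic subunit that replaces Psmb6 in the immunoproteasome, measured 28.7, 20.0 and 25.7 TPM in normal, 46.3, 70.9 and 73.0 in empty and 86.7, 56.8 and 41.3 in UTOpiA livers. All ACLF livers were above all normal livers. The fitted changes of 0.82 ± 0.25 (adjusted p = 0.0235) and 0.98 ± 0.25 (adjusted p = 0.0139) were past the p threshold and below 2-fold, so Psmb9 was not called in either ACLF group. On the unscaled log2(TPM + 1) they were 1.31 and 1.23, past 2-fold, and the change for UTOpiA passed 2-fold without normal replicate 1 or 3 or UTOpiA replicate 2 or 3 (1.01 to 1.13).

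The Psmb9 to Psmb6 ratio showed the same separation within livers, with 0.227, 0.141 and 0.183 in normal, 0.365, 0.510 and 0.328 in empty and 0.724, 0.393 and 0.445 in UTOpiA livers. Psmb8 over Psmb5, the pair of the second catalytic site, averaged 0.187 ± 0.017 (SD, n = 3) in normal, 0.495 ± 0.020 in empty and 0.534 ± 0.183 in UTOpiA livers. Psmb10 over Psmb7, the pair of the third site, averaged 0.373 ± 0.055, 1.28 ± 0.22 and 1.23 ± 0.23. Each of the 3 ratios was higher in every ACLF liver than in every normal liver, and each overlapped between the ACLF groups (exact permutation p = 0.1 for each ACLF group against normal, and 0.5, 0.7 and 0.7 for UTOpiA against empty, two-sided).

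**Figure D3:**
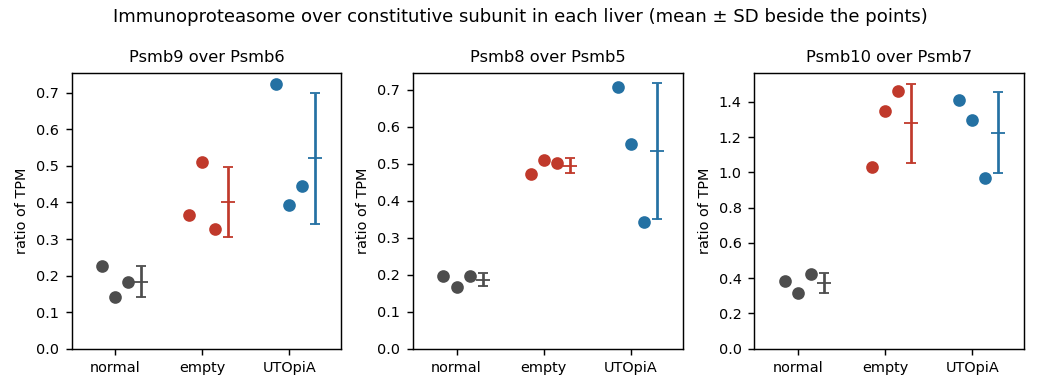
Ratio of the TPM of each immunoproteasome subunit to that of its constitutive counterpart in each liver (points), with the mean ± SD of 3 livers beside them. All 6 ACLF livers were above all normal livers for each pair, with means of 0.183, 0.401 and 0.521 for Psmb9 over Psmb6.

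In all, 6 of the 8 tested members were called higher for empty against normal, as were 20.7% of all genes tested, and 1 of 8 was called lower, as were 11.1% of all genes. Their median log2 fold change was 2.09, and that of all genes was 0.04. In the UTOpiA group against normal livers, 2 of 8 (Ifngr1 and Cxcl9) were called higher, against 18.2% of all genes, and 1 of 8 (Cxcl11) was called lower, against 6.81%, with a median of 0.79 beside 0.05 for all genes. The calls of Irf1, Socs1 and Cxcl10 in the empty group were near the threshold. On TMM-scaled counts empty replicate 1 was within the normal range for each, at 28.6 CPM (counts scaled to library size) of Irf1 beside 17.8 to 31.0, 0.570 of Socs1 beside 0.082 to 0.700 and 1.66 of Cxcl10 beside 0.970 to 1.80. The Irf1 and Cxcl10 calls were lost when normal replicate 1, 2 or 3 or empty replicate 2 was left out (adjusted p from 0.0630 to 0.128), and the Socs1 call when normal replicate 2 or 3 or empty replicate 2 or 3 was (0.0814 to 0.122). That of Cxcl9 in the UTOpiA group was lost without any 1 of its 6 livers (0.0525 to 0.115). Cxcl9 stayed called in the empty group with any 1 liver left out, and the call was lost by limma on log2(TPM + 0.1) and on log2(TPM + 1) with no filter (adjusted p = 0.0561 and 0.0701).

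**Figure D4:**
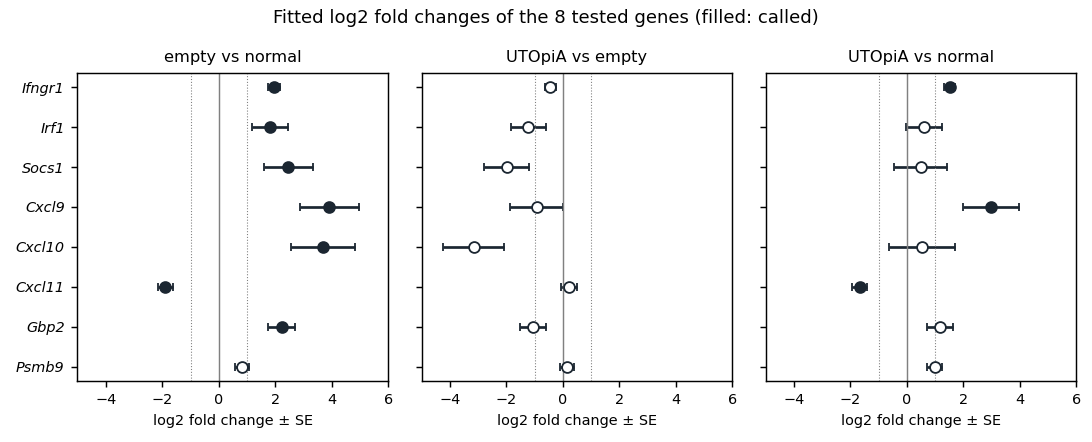
Log2 fold change ± SE from the fit to the counts for the 8 tested members in 3 comparisons, with filled points for called genes and dotted lines at 2-fold. Of these genes 7 were called for empty against normal, 0 for UTOpiA against empty and 3 for UTOpiA against normal.

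The comparison of UTOpiA with empty asks whether the treated circuit left a different response in the ACLF liver. It shares the empty livers with the comparison above, so a high or low empty liver enters both. No member passed the test, and 0 of 14089 genes did (0% of all genes). The fitted change was below 0 for 6 of 8 members, as for 7015 of 14089 genes, with a median of -0.99 beside 0.00 for all genes. The mean TPM was lower in the UTOpiA group for all 9 members, Ifng with its few reads included. On log2(TPM + 1), however, the median gene also lay 0.19 lower in this comparison than in the fit. At an unadjusted p under 0.05, reached by 1456 genes (10.3%), 4 of 8 members stood: Cxcl10 at -3.16 ± 1.08 (adjusted p = 0.405), Socs1 at -1.98 ± 0.79 (adjusted p = 0.450), Gbp2 at -1.05 ± 0.45 (adjusted p = 0.469) and Ifngr1 at -0.44 ± 0.19 (adjusted p = 0.475). Irf1 stood at -1.22 ± 0.63 (adjusted p = 0.547) and Cxcl9 at -0.93 ± 0.93 (adjusted p = 0.761). Cxcl11, at 0.21 ± 0.28 (adjusted p = 0.823), and Psmb9, at 0.16 ± 0.25 (adjusted p = 0.867), had the values nearest to 0, and both were lower in mean TPM. None of the 8 had every UTOpiA liver below every empty liver in TPM, as 8.62% of all genes did.

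DESeq2, the tool of the study's methods, called 0.882% of genes in this comparison (126 of 14291), and Cxcl10 was the 1 member among them, at -3.19 (adjusted p = 0.0396). The paper reports more differentially expressed genes for this comparison with that tool and these thresholds, and the reason for the difference was not tested. With empty replicate 2 left out, Cxcl10 was at -0.96 and not called, and Cxcl9 was called instead, at -1.51 (adjusted p = 0.0012). The empty livers that remained had 460 and 629 TPM of Cxcl9, and the UTOpiA livers 78.2 to 256. Irf1 then stood at 0.12. Which of the 2 chemokines DESeq2 called between the ACLF groups thus turned on 1 liver.

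Genes of T cells, NK cells and phagocytes, which make or answer interferon gamma, also differed between the livers, and so did those of hepatocytes. Summed hepatocyte markers were 167355 to 183957 TPM in normal, 42211 to 79060 in empty and 49144 to 75643 in UTOpiA livers, and 5 of 7 (Alb, Apoa1, Cps1, Hnf4a and Ttr) were called lower in the empty and 3 (Alb, Cps1 and Ttr) in the UTOpiA group against normal, where 11.1% and 6.81% of all genes were. Summed T cell markers were 13.4 to 16.1 TPM in normal, 63.2 to 98.7 in empty and 33.0 to 100.2 in UTOpiA livers, and 5 of 7 were called higher in the empty and 6 in the UTOpiA group, where 20.7% and 18.2% of all genes were. Cd4, which rat monocytes and macrophages also express, made up 57.6% to 85.2% of these sums, and the other 6 markers summed to 2.62 to 3.51 TPM in normal, 13.0 to 21.5 in empty and 10.3 to 25.1 in UTOpiA livers. Of the NK and cytotoxic markers, Gzmb and Klrb1 were too low to test, with at most 4 and 1 reads in any liver. Summed NK and cytotoxic markers were 7.11 to 9.19, 15.5 to 38.97 and 14.9 to 51.9 TPM, and 2 of 8 tested (Nkg7 and Prf1) were called higher in the empty group, near the share of all genes, and 4 (with Eomes and Klrd1) in the UTOpiA group. These NK counts turned on single livers, with 0 called in the empty group without empty replicate 3, 1 without empty replicate 1 or any 1 normal liver, and 1 (Nkg7) in the UTOpiA group without UTOpiA replicate 1 or any 1 normal liver. Macrophage and monocyte markers summed to 220 to 268, 522 to 808 and 294 to 601 TPM, with 7 of 8 called higher in the empty and 5 in the UTOpiA group. Clec4f went the other way, at -0.85 and -0.74, and measured 32.7, 228 and 14.3 TPM in the empty livers. Without empty replicate 2 it was called lower there. The Marco call was lost without normal replicate 2 or 3 or empty replicate 1 in the empty group. In the UTOpiA group it was lost without normal replicate 2 or 3 or UTOpiA replicate 1 or 2. The Cd163 call in the empty group was lost without normal replicate 2 or empty replicate 1. Neutrophil markers summed to 2.25 to 5.58, 186 to 1108 and 175 to 507 TPM, with 5 of 5 tested called higher in both. Bile duct cell markers summed to 14.4 to 24.6, 294 to 595 and 124 to 372 TPM, with 5 of 5 called higher in both. Endothelial markers summed to 74.6 to 80.5, 64.4 to 114 and 69.5 to 80.1 TPM, with 1 of 5 called lower (Kdr) in each ACLF group and 1 called higher (Cdh5 in the empty and Vwf in the UTOpiA group), and B cell markers to at most 3.75 TPM, with 0 of 2 tested called. The Cdh5 call was lost without normal replicate 3 or empty replicate 1 or 2, and that of Vwf without any 1 normal liver or UTOpiA replicate 2 or 3. Within the empty group, replicate 2, which stood apart for Irf1, Cxcl9 and Cxcl10, had the highest hepatocyte sum (79060 against 42211 and 43344 TPM) and the lowest NK and neutrophil sums (15.5 and 186 TPM). Alb and Tf gave 33608 and 25871 TPM of that hepatocyte sum. Alb, Tf, Apoa1, Ttr and Cps1 were highest in this liver, whereas Hnf4a (84.1 TPM against 124 and 110) and Serpina1 (9071 against 13291 and 10325) were lowest. Between the ACLF groups edgeR called no marker of these 8 lists. The median fitted change was -0.64 for neutrophil and -0.61 for bile duct cell markers (5 of 5 below 0 in each). It was 0.48 for hepatocyte markers (7 of 7 above 0). Medians were 0.11 for T cell, 0.81 for NK, -0.30 for macrophage, 0.05 for endothelial and -0.42 for B cell markers. Of all 14089 genes, 7015 were below 0, with a median of 0.00. DESeq2 called the macrophage marker Cd14, the receptor partner for LPS, lower in the UTOpiA group, at -1.33 (adjusted p = 0.0038), and at -1.33 without empty replicate 2 (adjusted p = 0.0047), where edgeR gave -1.31 ± 0.27 (adjusted p = 0.208). Cd14, named with Ttr and Stab2 after their values were seen, measured 34.2, 20.0 and 19.5 TPM in normal, 136.1, 128.2 and 123.4 in empty and 39.5, 74.1 and 28.9 in UTOpiA livers, and its UTOpiA and empty ranges did not overlap. Without empty replicate 2, DESeq2 also called the hepatocyte marker Ttr and the endothelial marker Stab2 higher in the UTOpiA group, at 1.23 and 1.86 (adjusted p = 0.0074 and 0.0014). Stab2 measured 1.73, 14.2 and 1.80 TPM in the empty livers. Their part in the members' changes was not tested, and in bulk tissue more cells of a type and more RNA per cell cannot be told apart.

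The pathway around the members was read from a list of 75 other genes, of which 69 were tested. For empty against normal 30 were called higher and 1 lower (20.7% and 11.1% of all genes), with a median log2 fold change of 0.78. The count called lower was 5 without empty replicate 2 and 0 without empty replicate 1 or normal replicate 1. For UTOpiA against normal 28 were called higher and 0 lower (18.2% and 6.81% of all genes), with a median of 0.82. The count called lower was 2 without UTOpiA replicate 1 and 1 without UTOpiA replicate 3 or normal replicate 2. Between the ACLF groups edgeR called 0, 13 of 69 had an unadjusted p under 0.05 (10.3% of all genes), and the median was -0.10, where the members stood at -0.99. In each role below, values are those of its most abundant genes, whatever their change, given for empty and then UTOpiA against normal unless another comparison is named.

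**Figure D5:**
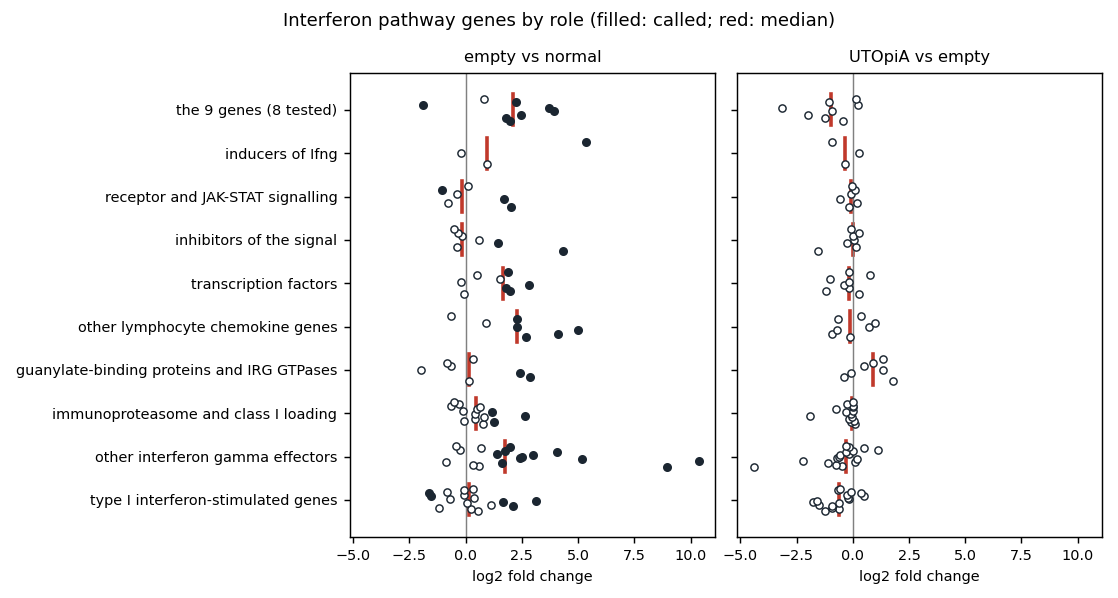
Log2 fold changes of tested pathway genes by role (points, 1 per gene; filled where called; red lines are medians) for empty against normal (left) and UTOpiA against empty (right). The members lay at a median of 2.09 on the left and -0.99 on the right, and the guanylate-binding proteins and GTPases at 0.17 and 0.91; Nos2 and Acod1, the points farthest right, had 0 reads in all normal livers, so their position is no measured size.

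Upstream of the members, the cytokine genes Il12a, Il12b and Il27 were too low to test. Ebi3, a subunit of interleukin 27, was called higher, at 5.37 ± 1.06 and 4.45 ± 1.06 (adjusted p = 0.0035 and 0.0109), from 1 to 5 reads in normal livers, and the latter was 3.22 without UTOpiA replicate 2. Il18 stood below 2-fold at 0.97 ± 0.21 and 0.64 ± 0.21 (adjusted p = 0.0044 and 0.0368), and Il15 at -0.20 ± 0.50 and 0.08 ± 0.50 (adjusted p = 0.766 and 0.911). The Il18 change in the empty group was called without empty replicate 2 or normal replicate 1.

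The second receptor chain, Ifngr2, rose by 2.03 ± 0.18 and 1.87 ± 0.18 (adjusted p = 7.4e-05 and 0.00014), beside 1.96 and 1.52 for Ifngr1, and Jak2 rose by 1.71 ± 0.23 and 1.14 ± 0.22 (adjusted p = 0.00042 and 0.0039). Jak1 stood at -0.77 ± 0.20 and -0.57 ± 0.20 (adjusted p = 0.0104 and 0.0451), and Stat2 fell by 1.04 ± 0.19 for empty against normal (adjusted p = 0.0017) and stood at -0.93 ± 0.19 for UTOpiA (adjusted p = 0.0042). With 1 liver left out, Jak2 for UTOpiA fell below 2-fold without normal replicate 2 (0.97), and Stat2 for empty without normal replicate 1 or empty replicate 1 (-0.996 and -0.90).

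Beside Socs1, 2 of 7 other inhibitors were called higher in each ACLF group, near the 20.7% and 18.2% of all genes. Socs3, the feedback inhibitor best known for interleukin 6, rose by 4.31 ± 0.88 and 2.76 ± 0.84 (adjusted p = 0.0041 and 0.0301), and was highest in empty replicate 2, at 305 TPM against 58.1 and 60.0 in the other empty livers, as Socs1 and Irf1 were. The rise of Socs3 was 3.04 without that liver and 5.38 without normal replicate 1, and its call in the UTOpiA group was lost without normal replicate 2 or 3 or UTOpiA replicate 2 or 3 (adjusted p from 0.0657 to 0.0975). The phosphatase gene Ptpn2 rose by 1.45 ± 0.26 and 1.19 ± 0.26 (adjusted p = 0.0018 and 0.0062), and Ptpn11 stood at -0.15 ± 0.13 and -0.14 ± 0.13 (adjusted p = 0.360 and 0.418). Beside Irf1, 4 of 8 other transcription factors were called higher in each ACLF group, against 20.7% and 18.2% of all genes, and 2 of 8 (Irf8 and Stat3) in the UTOpiA group without normal replicate 2. Irf8 rose by 1.77 ± 0.14 and 1.63 ± 0.14 (adjusted p = 5.9e-05 and 0.00011) and Stat3 by 1.86 ± 0.33 and 1.71 ± 0.33 (adjusted p = 0.0017 and 0.0036). Irf7, a factor of the type I response, rose by 1.99 ± 0.50 for empty (adjusted p = 0.0102) and stood at 0.82 ± 0.49 for UTOpiA (adjusted p = 0.210).

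Among other chemokine genes that act on lymphocytes, Cxcl16, the ligand of CXCR6, rose by 5.01 ± 0.38 and 4.33 ± 0.37 (adjusted p = 5.8e-05 and 0.00011). Ccl5, a chemokine of T cells, measured 6.65, 6.26 and 6.39 TPM in normal, 18.8, 14.7 and 18.5 in empty and 37.6, 20.9 and 29.1 in UTOpiA livers, so that every UTOpiA liver was above every empty liver, as for 2.43% of all genes. It was called for UTOpiA against normal, at 1.897 ± 0.312 (adjusted p = 0.0017), not for empty against normal, at 0.91 ± 0.31 (adjusted p = 0.0346), and not between the ACLF groups, at 0.99 ± 0.29 (adjusted p = 0.362). Dpp4, whose product trims CXCR3 ligands, stood at -0.63 ± 0.46 and -0.25 ± 0.46 (adjusted p = 0.281 and 0.690).

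The relatives of Gbp2 and the immunity-related GTPases had a median of 0.91 for UTOpiA against empty, with 5 of 7 tested genes above 0, whereas Gbp2 stood at -1.05, and edgeR called none. Ifi47 measured 12.8, 20.3 and 17.8 TPM in normal, 26.4, 24.3 and 41.7 in empty and 93.0, 75.3 and 41.2 in UTOpiA livers. Its change was 0.32 ± 0.26 and 1.69 ± 0.26 (adjusted p = 0.328 and 0.0014), and 1.36 ± 0.26 between the ACLF groups (adjusted p = 0.189). Igtp and Irgm stood at 0.51 ± 0.20 and 0.91 ± 0.20 between the ACLF groups (adjusted p = 0.448 and 0.264). Against normal they were below 0 in the empty group, at -0.64 ± 0.20 and -0.81 ± 0.20 (adjusted p = 0.0257 and 0.0086), and near 0 in the UTOpiA group, at -0.13 ± 0.20 and 0.09 ± 0.20 (adjusted p = 0.625 and 0.744). DESeq2 called 4 of the 75 genes between the ACLF groups, against 0.882% of all genes. Of these, 3 were higher in UTOpiA livers, the GTPase genes Gbp3 at 1.78 and Ifi47 at 1.34 and the death ligand gene Tnfsf10 at 1.09 (adjusted p = 0.00071, 0.0019 and 8.3e-05). The other was Nos2, the inducible nitric oxide synthase (adjusted p = 6.4e-05), with 0 reads in all normal livers, 55, 116 and 57 in empty and 3, 6 and 0 in UTOpiA livers. Without empty replicate 2, where DESeq2 called 3.56% of all genes, it called these 4 and another 4, with Gbp6 at 2.64, Cish at 2.33 and Dpp4 at 1.24 higher and Irf7 at -1.47 lower in UTOpiA livers (adjusted p = 0.0085, 0.0154, 4.8e-07 and 0.0437). Genes named only for a DESeq2 call were chosen after their values were seen.

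Around Psmb9, 14 genes of the proteasome and of antigen presentation were read, among them the constitutive subunits Psmb5, Psmb6 and Psmb7, which were not called. Of the 14, 3 (B2m, Psmb10 and Tap2) were called higher for empty and 1 (Psmb10) for UTOpiA against normal, where 20.7% and 18.2% of all genes were. The UTOpiA count was 2 without UTOpiA replicate 3 (with Psmb8) or without normal replicate 1 (with RT1-A2). The Tap2 call was lost without normal replicate 1 or 3 or empty replicate 1 or 2 (adjusted p from 0.0621 to 0.0897). B2m, the light chain of class I molecules, rose by 1.17 ± 0.26 for empty (adjusted p = 0.0048) and stood at 0.88 ± 0.25 for UTOpiA (adjusted p = 0.0224), below 2-fold. Psme1, a proteasome activator subunit, stood at -0.06 ± 0.16 and -0.01 ± 0.16 (adjusted p = 0.786 and 0.962), with higher mean TPM in both ACLF groups. RT1-A2, a rat class I heavy chain from a family of near-identical copies, stood at 0.64 ± 0.49 and 0.66 ± 0.49 (adjusted p = 0.310 and 0.311). Its normal livers spread widely, at 198, 37.1 and 103 TPM, and it was called higher for UTOpiA without normal replicate 1.

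Among other effectors of the response, 11 of 17 tested genes were called higher for empty and 8 for UTOpiA against normal, where 20.7% and 18.2% of all genes were. Cd74, the class II invariant chain, rose by 4.08 ± 0.36 and 3.76 ± 0.35 (adjusted p = 7.5e-05 and 0.00014) and Serping1, the C1 inhibitor, by 1.77 ± 0.29 in both (adjusted p = 0.0011 and 0.0016). Ubd, a ubiquitin-like modifier, rose by 5.17 ± 1.72 and 5.36 ± 1.73 (adjusted p = 0.0347 and 0.0374), from normal livers that held 2, 473 and 0 reads. Without normal replicate 2 it stood at 12.28 and 12.47. Its call in the empty group was lost without normal replicate 1 or 3 or empty replicate 2 or 3 (adjusted p from 0.0514 to 0.0691), and that in the UTOpiA group without normal replicate 1 or 3 or any 1 UTOpiA liver (0.0544 to 0.0797). Ido1 and Gzmb were too low to test.

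Type I interferons act through a related pathway and share targets with the members, such as Cxcl10, so 17 of their target genes were read beside them. Of 16 tested, 3 were called higher and 2 lower for empty against normal, close to the 20.7% and 11.1% of all genes, with a median of 0.15. For UTOpiA against normal 0 were called higher, or 1 without UTOpiA replicate 3, and 3 lower (18.2% and 6.81% of all genes), with a median of -0.47. Between the ACLF groups 14 of 16 stood below 0, with a median of -0.61, where 7015 of all 14089 genes did with a median of 0.00, and edgeR called 0, with 5 of 16 at an unadjusted p under 0.05 (10.3% of all genes). DESeq2 called Ifit3 lower in the UTOpiA group, at -1.81 (adjusted p = 0.0054). Ifit3, an antiviral gene, measured 4.40, 2.07 and 3.92 TPM in normal, 10.3, 13.1 and 24.2 in empty and 4.597, 5.94 and 1.80 in UTOpiA livers. Without empty replicate 2, where DESeq2 called 3.56% of all genes, it called 3 of these genes, all lower: Ifit3 at -1.92, Isg15 at -1.89 and Rsad2 at -2.08 (adjusted p = 0.0038, 0.024 and 0.025). Bst2 fell by 1.52 ± 0.32 and 1.02 ± 0.32 (adjusted p = 0.0041 and 0.0307, the latter lost without normal or UTOpiA replicate 2 or 3, at 0.0585 to 0.0852), Ddx58 fell by 1.62 ± 0.13 and 1.24 ± 0.13 (adjusted p = 6.1e-05 and 0.00025), and Ifi27 stood at -0.71 ± 0.24 and -0.88 ± 0.24 (adjusted p = 0.0354 and 0.0173), below 2-fold.

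The members were not equally close to a shared pattern across the 9 livers. The distance of a gene from their shared pattern, as the mean difference in standardised log2 CPM, was 0.395 SD for Gbp2, 0.412 for Psmb9, 0.419 for Cxcl10, 0.420 for Socs1 and 0.442 for Irf1, and larger for Ifngr1 at 0.580, Cxcl9 at 0.665 and Cxcl11 at 1.25. The 5 genes outside the lists nearest to that pattern were Tmem184b at 0.315, Ppp1r3d at 0.332, Rac1 at 0.333, Dusp2 at 0.336 and Rnf19b at 0.338. Dusp2, a phosphatase of MAP kinases, measured 0.077, 0.217 and 0.286 TPM in normal, 1.98, 8.83 and 4.46 in empty and 2.79, 1.34 and 0.602 in UTOpiA livers. UTOpiA replicate 3 was the lowest of the 6 ACLF livers for 6 of the 8 tested members in TPM and for 4 of 8 after TMM scaling. This was not particular to the members. The same liver was lowest for 47 of 69 other pathway genes and 15 of 16 type I genes in TPM, and for 23 and 10 after TMM scaling.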

How the data were processed

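Bulk RNA-seq counts and TPM of 9 rat livers were analysed, and each library took its group and replicate number from its label. The authors trimmed the reads (Cutadapt 1.9.1 in the methods, Trimmomatic in the submitters' processing notes), aligned them with HISAT2 2.0.1 and assigned unique reads to genes with featureCounts 2.6.0. The authors deposited raw counts for 32883 genes without normalisation, and TPM scaled by gene length and library. An MGIEasy kit and the mouse build GRCm38 are named in the methods, NEBNext kits in the labels and rn6 in the submitters' processing notes. How strand was handled in counting is not given in the sources used here, so overlapping genes could share reads.

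The counts were fitted with edgeR 4.0.16 in R 4.3.3, with filterByExpr on the 3 groups, TMM scaling, 1 mean per group over all 9 libraries and a robust two-sided quasi-likelihood test. Calls needed a Benjamini-Hochberg adjusted p under 0.05 over 14089 genes and a fold change above 2. Member TPM and ratios were compared by two-sided exact permutation tests, with no adjustment. The alternatives were DESeq2 1.42.0, limma 3.58.1 on log2(TPM + 1) and log2(TPM + 0.1), median-of-ratios scaling, other filters and thresholds, 6 libraries, a replicate block, and each library left out. DESeq2 without empty replicate 2 was added after seeing the data. The fits were tested on simulated data with known changes.

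The members and lists were chosen with earlier results of these data known. All 9 members are named, and in each other role the 3 genes with the highest mean TPM, of which 1 is not reported here. Ifngr2, Jak2, Psmb8, Psmb10, Tap2, the genes called by DESeq2 and those too low to test were named after their values were seen. The 5 genes of the most similar pattern were chosen by the smallest mean absolute difference of standardised log2 CPM from the mean of the 8 tested members. Replicates are separate rats by their labels, the most similar pair of libraries differed beyond sampling noise (chi-square per degree of freedom 17.6), and limits from counts cover counting error only. Promoters came from RefSeq (GRCr8), and positions in the tables were not converted.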

Additional observations from a re-analysis of the deposited data

How the results depend on the processing

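For empty against normal, 7 members were called. Of these, 4 were called in the fit with a replicate block, 4 with only the 6 libraries compared and 4 by DESeq2 without empty replicate 2, and 4 to 7 when 1 library was left out. In the replicate block the lost calls were Irf1 (1.45), Socs1 (2.68) and Cxcl10 (2.90). For UTOpiA against empty, where 0 members and 0 other genes were called, DESeq2 called 1 member, 5 pathway genes (members included) and 126 genes in all, and without empty replicate 2 it called 1 member, 9 pathway genes and 491 genes in all. Limma on log2(TPM + 1) with no filter called 1 gene, and leaving out 1 library gave 0 to 1 pathway genes and 0 to 49 genes, with 49 without UTOpiA replicate 2. Over all genes, 4476 were called for empty against normal (6824 with no fold change threshold, 2823 with at least 10 counts in every library) and 3522 for UTOpiA against normal (5571 and 2085). The cause of these differences was not tested, beyond fewer libraries, fewer genes or another threshold.

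Signs turned for the following values, none of which was called. For UTOpiA against empty, Irf1 was at 0.12 by DESeq2 without empty replicate 2 and from -1.63 to 0.15 with 1 library left out. Psmb9 was at -0.0763 by limma on log2(TPM + 1), with and without a filter, at -0.0779 on log2(TPM + 0.1), and from -0.17 to 0.31 with 1 library left out. Cxcl11 ranged from -0.0595 to 0.38, and Socs1 for UTOpiA against normal from -0.21 to 1.77. In mean TPM, the difference of Cxcl11 for UTOpiA against empty was 0.049 on log2(TPM + 1) and ranged from -1.92 to 0.974 TPM, that of Psmb9 from -14.3 to 8.36 TPM, and that of Ifng for UTOpiA against normal from -0.123 to 0 TPM. Same-numbered livers did not deviate together (correlations from -0.17 to 0.047), so the replicate numbers do not pair the livers, and the block moved the other counts of called members and pathway genes by at most 1.5 times. Depth limits Ifng and Socs1, with at most 1 and 52 reads.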
